A study of Mus musculus with 8 samples.

Results

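The 80 cytosolic ribosomal protein genes described here were chosen by name from the 32285 gene rows of the count table: symbols of the Rpl and Rps series with a number and at most 1 closing letter a, x or l, together with Rplp0, Rplp1, Rplp2 and Rpsa, and without pseudogene rows. The naming rule reads symbols alone. Of the 80 genes, 31 belong to the small and 49 to the large ribosomal subunit by symbol. UMIs (unique molecular identifiers, 1 per captured RNA molecule) were found for 79 of them, and Rpl10l had none. A level of at least 20 CPM (UMIs of the gene per 1000000 UMIs of the library) in 1 of the libraries was reached by 77, the measured genes of the treatment comparison. Rps3a1 and Fau also encode ribosomal proteins but lie outside the naming rule and are described with the related genes.

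Mouse whole bone marrow cells were kept for 1 week on irradiated AFT024 cells, a murine embryonic liver fibroblast line used as a feeder layer, in long-term culture medium. The media control group received nothing more. The deoxycholic acid group received this secondary bile acid at 35 µM. Both groups share the feeder, the medium, the sort for lineage-negative cells before capture, and the 10x Genomics 3′ chemistry, which reads the 3′ end of each molecule.

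Cytosolic ribosomes are built from ribosomal RNA and a fixed set of proteins in a small subunit, which reads the messenger RNA, and a large subunit, which forms the peptide bond. Many of their messenger RNAs start with an uninterrupted run of pyrimidines (C or T in DNA), the terminal oligopyrimidine motif, through which their translation is controlled by nutrient and growth signals. During neutrophil formation, proliferating granulocyte precursors make the contents of primary granules first, then those of secondary granules, and then stop dividing. Elane encodes neutrophil elastase of primary granules, Ngp a secondary granule protein, and Retnlg a resistin-like protein of late neutrophils.

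Cell names in the table carry only the group, so each group was treated as 1 library, and a difference between the libraries has no replicate check. No test was made, and intervals are exact 95% intervals for counting error only. After filtering, 8479 media control cells with a median of 18801 UMIs and 7761 deoxycholic acid cells with a median of 14421 UMIs were kept, and 25 barcodes occurred in both libraries. Granulocyte markers defined most cells. The summed level of 5 early markers (Elane, Mpo, Prtn3, Ctsg and Ms4a3) was 232 and 203 UMIs per 10000 in the Elane stage of the media control and deoxycholic acid libraries and 3.94 and 3.64 in the Retnlg stage. The summed level of 7 late markers (Retnlg, Mmp8, Mmp9, Cxcr2, Il1b, Csf3r and Ccl6) was 0.806 and 0.763 in the Elane stage and 74.1 and 68.4 in the Retnlg stage. Elane and Retnlg also define the stages, so part of each contrast is built in. Elane alone gave 69.9 and 65.2 of the early sums in the Elane stage. Retnlg alone gave 30.8 and 29.5 of the late sums in the Retnlg stage. Fibroblast collagen and Sparc UMIs of the kind the feeder could give summed to at most 0.0579 per 10000 in any stage of either library. In cells outside the stages the sum was at most 0.129, in deoxycholic acid. Among those outside cells, 4 of deoxycholic acid and 0 of the media control had at least 20 per 10000.

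Ribosomal protein RNA made up 21.7% of all UMIs in the media control library and 21.3% in the deoxycholic acid library. The mean cell held 4237 ribosomal protein UMIs in the media control and 3231 in deoxycholic acid, whose cells also had fewer UMIs in all. Of the 100 genes with the highest mean level, 63 were ribosomal protein genes, and 7 of the first 20. Mean levels of the 77 measured genes lay between 545 and 6925 CPM with a median of 2671 CPM, so these abundant genes spanned little more than an order of magnitude. These are molecule counts from the 3′ end and were not divided by transcript length.

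Among the most abundant, Rpl41, the shortest of the proteins, had 6041 CPM in the media control and 7725 CPM in deoxycholic acid. Rps29, a small zinc-binding protein of the small subunit, had 4382 and 7381 CPM. Rps27a, which is made as a fusion with ubiquitin, had 5915 and 5210 CPM. Rpl13 had 5533 and 5112 CPM, and Rpl32 had 5005 and 4564 CPM, both large subunit proteins. The order of these 5 genes differed between the libraries: Rps29 was the lowest of them in the media control and stood next to Rpl41 in deoxycholic acid. The 3 proteins of the stalk, the flexible arm of the large subunit that recruits elongation factors, stood close together. Rplp0 had 3152 and 2771 CPM, Rplp1 had 3618 and 3403 CPM, and Rplp2 had 2975 and 2887 CPM.

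Along granulocyte maturation the RNA of these genes was lower at every step in both libraries. Cells were placed in 4 stages by UMIs per 10000: the Elane stage (Elane at least 20, Ngp under 20), the Elane with Ngp stage (both at least 20), the Ngp stage (Elane under 20, Ngp at least 20), all with Retnlg under 10, and the Retnlg stage (Retnlg at least 10). In the media control the ribosomal protein share of UMIs was 30.7% in 1148 Elane stage cells, 24.7% in 2080 Elane with Ngp cells, 14.3% in 3826 Ngp cells and 8.27% in 565 Retnlg cells. In deoxycholic acid it was 31.5% in 1053 cells, 25.2% in 1648 cells, 14.5% in 3865 cells and 9.02% in 469 cells. The share was thus 3.71-fold lower in Retnlg than in Elane cells of the media control and 3.49-fold lower in deoxycholic acid. The first step, from Elane to Elane with Ngp, was the smallest in both libraries, at -0.31 and -0.32 on the log2 scale. The step to the Ngp stage was -0.79 and -0.80, and the last step was -0.79 in the media control and -0.68 in deoxycholic acid.

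**Figure D1:**
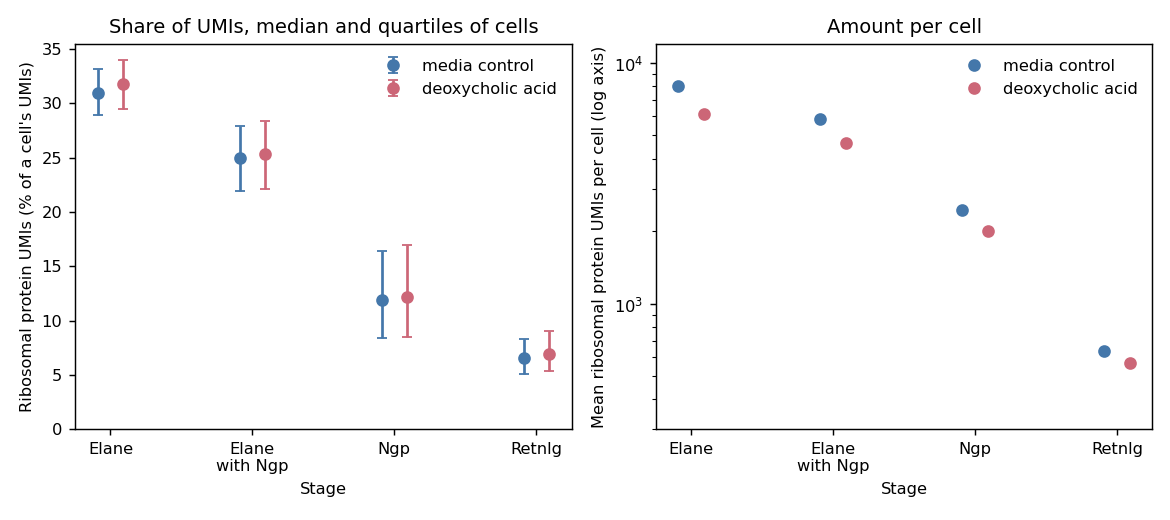
Ribosomal protein RNA by stage and library. Left, the share of a cell's UMIs (%), with points at the median cell and bars from the lower to the upper quartile of cells; right, mean ribosomal protein UMIs per cell on a log axis. Both measures are lower at each later stage in both libraries, from 8008 to 634 UMIs per cell in the media control and from 6138 to 565 in deoxycholic acid.

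In absolute numbers the decline was steeper than in shares. The mean media control cell held 8008 ribosomal protein UMIs in the Elane stage and 634 in the Retnlg stage, 12.6-fold fewer, and the mean deoxycholic acid cell 6138 and 565, 10.9-fold fewer. Over the same stages the median depth of a cell was 3.91-fold and 3.21-fold lower. UMIs of 17 granule and calprotectin genes took 5.54% of the total in the Elane stage and 37.2% in the Retnlg stage of the media control, and 5.79% and 35.4% in deoxycholic acid. With these genes left out of the total, the ribosomal protein share still lay between 32.5% and 13.2% in the media control and between 33.5% and 14.0% in deoxycholic acid from the first stage to the last. Fewer ribosomal protein molecules per cell and a lower capture from the smaller late cells cannot be told apart from UMIs alone.

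The decline went on within the stages. Among cells with Elane under 20 that had reached the limit for Ngp or Retnlg, those with Retnlg under 1 per 10000 carried 15.4% ribosomal protein UMIs in the media control and 15.3% in deoxycholic acid. At 10 to 30 Retnlg UMIs per 10000 the shares were 8.88% and 9.29%. At 100 or more they were 5.77% in 34 cells and 6.49% in 26 cells, with median depths of 4257 and 3394 UMIs. Cells with Ngp at least 20 and Retnlg under 10, split by Elane, gave 28.3% and 29.3% at Elane of 100 or more and 10.4% and 10.7% at Elane under 1. Split by Ngp, cells with Retnlg under 10 went from 31.2% and 31.6% at Ngp under 3 to 11.6% and 11.7% at Ngp of 300 or more. Each of the 3 marker scales therefore ordered the cells in the same way in both libraries.

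**Figure D2:**
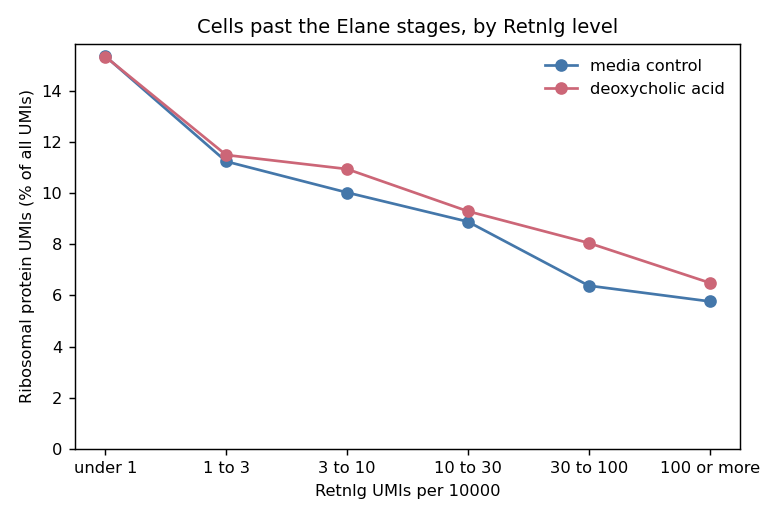
Ribosomal protein share of all UMIs (%, vertical axis) in cells with Elane under 20 and Ngp or Retnlg at its limit, by Retnlg UMIs per 10000 (horizontal axis), with 1 line per library. The share is lower in each higher Retnlg bin, from 15.4% to 5.77% in the media control and from 15.3% to 6.49% in deoxycholic acid.

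Cells of 1 stage with high and low cell cycle RNA also differed. In the Ngp stage, cells with at least 5 UMIs per 10000 of 8 cell cycle genes carried 15.0% ribosomal protein UMIs in the media control (2785 cells) and 15.1% in deoxycholic acid (2836 cells). Cells of the same stage with under 1 carried 9.12% (537 cells) and 9.68% (509 cells). Ngp itself was close in the 2 sets of media control cells, at 271 and 278 per 10000, while Elane was 4.89 and 0.739 and the median depth 19045 and 9362 UMIs, so the cells low in cell cycle RNA also had fewer UMIs and less Elane. The part of depth and of Elane in this difference was not tested. In the Elane with Ngp stage the share ran the other way. There, cells with at least 5 carried 24.5% and 24.8%, and the few cells with under 1 carried 27.0% (28 cells) and 30.9% (29 cells). These few cells had median depths of 13706 and 12147 UMIs against 24075 and 18197. They held 3305 and 3587 ribosomal protein UMIs per cell against 6026 and 4731. Their Ngp was 120 and 85.5 per 10000 against 112 and 107.

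Most of the genes were lower along the stages. Of 78 genes measured in the stage comparison, 76 were at least 2-fold lower in the Retnlg than in the Elane stage in both libraries, against 34.2% of the 5213 genes of the whole table that could be compared in this way. With granule and calprotectin genes left out of the total, 62 were, and the log2 ratio of the summed level went from -1.85 to -1.28. The share of all genes was not computed with that total, so 34.2% is no background for the 62. Of the 78, 77 were lower by any amount, against 54.4% of all genes. Rpl3l, measured only through its Retnlg stage level, was the 1 gene called higher, a direction in which 23.4% of all genes were called. Rps9 was the 1 gene not called. The median log2 ratio was -1.91 in the media control and -1.81 in deoxycholic acid for these 78 genes, and -0.33 and -0.31 for all genes. Without Rpl3l, 77 of 77 genes were lower at each of the 3 steps in each library. The ranking of the genes was much alike in the 2 libraries (Spearman's rho 0.96 over these 77 genes, which share cells, depth and total within a library). Over the same genes the rho between the decline and coding length was 0.01.

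**Figure D3:**
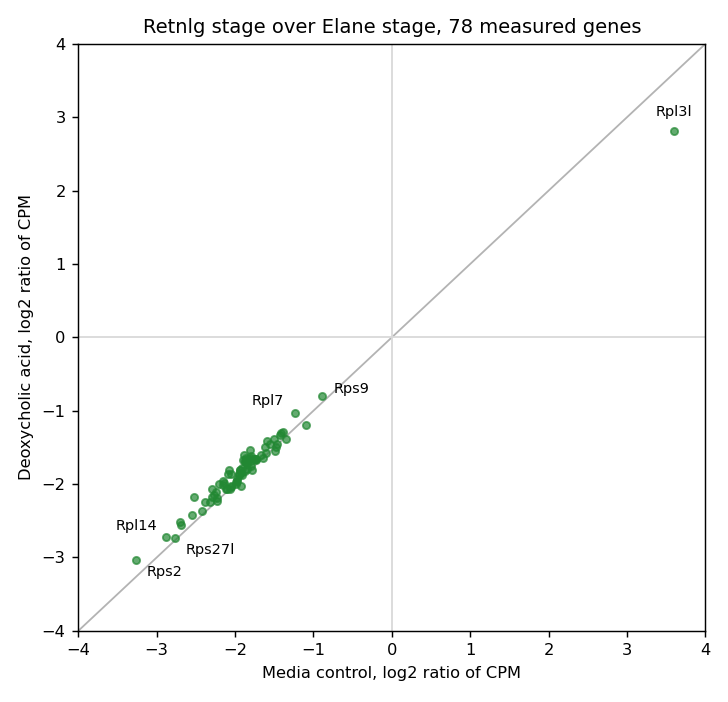
Log2 ratio of CPM in the Retnlg stage over the Elane stage for 78 measured ribosomal protein genes, media control on the horizontal and deoxycholic acid on the vertical axis, with the line of equal ratios. Rpl3l alone lies above 0, at 3.60 and 2.82, and Rps9 is nearest to 0 among the others, at -0.89 and -0.80.

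Rps2, a small subunit protein at the entrance of the messenger RNA channel, had the largest decline. Its level in the media control was 4848, 3829, 1811 and 502 CPM from the Elane to the Retnlg stage, and in deoxycholic acid 3684, 2870, 1417 and 449 CPM. It was 9.65-fold and 8.21-fold lower in the last stage. Rpl14, a large subunit protein, followed with 2773, 2119, 1061 and 376 CPM in the media control and 2761, 2098, 1066 and 418 CPM in deoxycholic acid, 7.38-fold and 6.61-fold lower. Rpl12, a large subunit protein at the base of the stalk, was 6.43-fold and 5.88-fold lower, and Rpl22, a large subunit protein with a close relative Rpl22l1, was 6.50-fold and 5.72-fold lower. Rps27l, the paralog of Rps27 and a known p53 target, was 6.82-fold and 6.67-fold lower. For each of these 5 genes the last step, into the Retnlg stage, was larger as a ratio than the first.

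Rps9, a small subunit protein that helps in the accuracy of decoding, was the gene nearest to even. It had 4257, 3464, 2623 and 2302 CPM in the media control and 3990, 3230, 2458 and 2284 CPM in deoxycholic acid, 1.85-fold and 1.75-fold lower. In Retnlg cells it stood near Rps27a (2553 and 2369 CPM), although in Elane cells Rps27a was at 7996 and 7392 CPM. Rpl7 was 2.35-fold and 2.04-fold lower, Rps27 2.13-fold and 2.29-fold, and Rpl17 2.62-fold and 2.44-fold, these being the next smallest. The stalk proteins lay near the middle of the range: Rplp0 was 3.69-fold and 3.05-fold lower, Rplp1 3.54-fold and 3.17-fold, and Rplp2 3.48-fold and 3.06-fold. Over the 77 genes without Rpl3l the median was 3.78-fold in the media control and 3.50-fold in deoxycholic acid.

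Both subunits were lower in the late stages. Small subunit genes took 13.9% of UMIs in the Elane stage and 3.98% in the Retnlg stage of the media control, and 14.1% and 4.26% in deoxycholic acid. Large subunit genes took 16.8% and 4.29% in the media control, and 17.4% and 4.77% in deoxycholic acid. The median log2 ratio over the 31 small subunit genes was -1.86 and -1.70, and over 47 measured large subunit genes -1.94 and -1.86.

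Rpl3l was higher in the last stage, though its call was lost with the stage limits halved, when 0 genes were called higher. It encodes a large subunit protein that replaces Rpl3 in ribosomes of skeletal muscle and heart. Its level in the media control was 2.14, 3.67, 5.49 and 25.8 CPM from the Elane to the Retnlg stage, and in deoxycholic acid 4.49, 6.48, 7.33 and 31.7 CPM. The Retnlg stage was 12.1-fold and 7.05-fold higher than the Elane stage, resting on 112 and 93 UMIs in that stage. Rpl3, the general form, had 1734 CPM in the Elane and 301 CPM in the Retnlg stage of the media control, and 1295 and 288 CPM in deoxycholic acid, 5.76-fold and 4.50-fold lower. Rpl3 thus stayed far above Rpl3l in every stage. In GENCODE vM21 (GRCm38) Rpl3l lies at chr17:24727820-24736143 on the + strand, and Msrb1, a methionine sulfoxide reductase gene, starts 498 bases beyond its end on the same strand. Msrb1 had 391 and 1053 CPM in the Elane and Retnlg stages of the media control and 418 and 1010 CPM in deoxycholic acid. Rpl3l shares none of its 50-base words with another gene's transcripts, and the part of Msrb1 reads in its count was not tested.

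The remaining paralogs were below their partners. Rpl39l, a testis-enriched relative of Rpl39, had 387 UMIs in the media control and 125 in deoxycholic acid, 2.33 and 1.06 CPM, where Rpl39 had 2335 and 3007 CPM. Rpl10l, a testis form of Rpl10, had 0 UMIs in both libraries, where Rpl10 had 1470 and 1266 CPM. Rps27l had 597 and 494 CPM, below Rps27 with 1487 and 2386 CPM. No row was matched to Rps4l, the intended partner of Rps4x (2308 and 1855 CPM).

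The start regions of genes at the ends of both comparisons, the first pair with a listed start at each end, are printed because many ribosomal protein RNAs begin in a pyrimidine run. Windows of 30 bases, from 10 before to 20 after a listed start, were taken from RefSeq (GRCm38.p6), which listed 72 starts of 60 of the 80 genes. A run of at least 8 uninterrupted C or T on the coding strand was searched on that strand alone. It lay in 31.9% of the 72 windows and in 11.2% of 32851 windows of all genes. Capitals mark such a run, and each window is given 5′ to 3′ on the gene's strand. Rps2 and Rpl14 had the largest declines along the stages, Rpl3l was higher and Rps9 had the smallest decline. Rpl38 and Rps27 were among the highest with deoxycholic acid, and Rpl9 and Rps3 were the lowest.
Rps2, chr17:24720053-24720082, + strand: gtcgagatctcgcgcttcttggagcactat
Rpl14, chr9:120571507-120571536, + strand: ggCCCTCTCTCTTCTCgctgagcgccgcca
Rpl3l, chr17:24727816-24727845, + strand: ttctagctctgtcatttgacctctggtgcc
Rps9, chr7:3704031-3704060, + strand: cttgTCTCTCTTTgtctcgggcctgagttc
Rpl38, chr11:114668570-114668599, + strand: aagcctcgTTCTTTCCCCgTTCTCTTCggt
Rps27, chr3:90213629-90213658, - strand: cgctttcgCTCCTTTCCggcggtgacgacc
Rpl9, chr5:65391412-65391441, - strand: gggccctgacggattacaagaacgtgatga
Rps3, chr7:99483690-99483719, - strand: aagggtcgccgcgctgcgcggcgtcattgc
In the stage comparison each printed pair held a gene with a run and a gene without. In the treatment comparison both printed higher genes, Rpl38 and Rps27, held a run, and both printed lower genes, Rpl9 and Rps3, held none. The listed start of every printed gene lies inside the gene as GENCODE vM21 places it, furthest inside for Rps2. Only the windows of Rpl3l and Rps27 reach the GENCODE start, so the other printed windows do not show it. Rpl3l has a further listed start, whose window holds no run either. Of the other genes higher with deoxycholic acid, Rpl35 and Rpl39 hold a run and Rps21, Rps28, Rpl6, Rpl37, Rpl37a and Rpl41 hold none. Of the other lower genes, Rpl7a, Rps18 and Rps10 hold a run and Rpl22, Rps23, Rps4x, Rpl27, Rps7, Rpl11 and Rps27l hold none. A match describes the listed start and is no measurement of where these transcripts began.

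With deoxycholic acid the summed level of the 80 genes was nearly the same as in the media control. The log2 ratio of deoxycholic acid over media control was -0.02 over all kept cells, with an interval for counting error of -0.0246 to -0.0232. Within the Elane, Elane with Ngp, Ngp and Retnlg stages it was 0.04, 0.03, 0.02 and 0.13. It was -0.03 in the cells outside the 4 stages. The sum over all cells and the sums within stages thus differed in sign. The cells were spread differently over the stages: the Elane with Ngp stage held 24.5% of the cells in the media control and 21.2% in deoxycholic acid, and the Ngp stage 45.1% and 49.8%, which has a lower ribosomal protein share.

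Below this near-even sum, single genes lay on both sides of 0. Of the 77 measured genes, 15 were at least 1.2-fold lower and 12 at least 1.2-fold higher with deoxycholic acid, where 11% and 13.2% of the 4670 measured genes of the whole table were lower and higher by that fold. The other 50 lay inside it. The share of the 77 called higher was thus close to that of the whole table, and the share called lower was above it. On the log2 scale 60 of the 77 were below 0, against 42.8% of all genes, and the median was -0.13 against 0.04. When the ratios within the 4 stages were averaged, the split of called genes was 6 lower and 12 higher, and with the trend of the ratio on transcript length taken out it was 7 lower and 13 higher. The shares of all genes were not computed by these settings, so those of the whole table given above are no background for them. By these settings 29 and 39 of the 77 were above 0, in place of 17, so the direction of genes near 0 depends on the setting.

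The 12 higher genes were Rps29, Rpl38, Rps27, Rps21, Rps28, Rpl6, Rpl35, Rpl37a, Rpl37, Rpl36, Rpl39 and Rpl41. Rps29 had 4382 CPM in the media control and 7381 CPM in deoxycholic acid, a log2 ratio of 0.75. Rpl38, a small large-subunit protein linked in mice to the translation of Hox messenger RNAs, had 2815 and 4548 CPM, a ratio of 0.69. Rps27, a zinc-binding small subunit protein, had 1487 and 2386 CPM and a ratio of 0.68, but it shares 98.6% of its 50-base words with Rps27rt, so that reads of both may not be separable. The row Rps27rt itself had 20.9 and 19.0 CPM. Rps21 had 2469 and 3728 CPM and Rps28 had 3190 and 4805 CPM, both small proteins of the small subunit, with ratios of 0.59. The higher genes thus include proteins of both subunits.

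The other 7 higher genes belong to the large subunit and had ratios between 0.35 and 0.46. Rpl6 had 2897 and 3970 CPM and Rpl35 had 1933 and 2645 CPM. Rpl37a and Rpl37, 2 small zinc-binding proteins, had 3013 and 4097 CPM and 2608 and 3546 CPM. Rpl36 had 2352 and 3193 CPM and Rpl39, a protein of the peptide exit tunnel, 2335 and 3007 CPM, while Rpl41 is given above. Along the stages these genes lay inside the range of the others. Rpl37a was 2.55-fold and 2.61-fold lower in Retnlg than in Elane cells, and Rpl36 was 4.97-fold and 4.75-fold lower.

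The 15 lower genes were Rpl9, Rps3, Rpl7a, Rps2, Rps18, Rpl3, Rpl22, Rps23, Rps10, Rps4x, Rpl27, Rps7, Rpl11, Rpl7 and Rps27l. Rpl9, a large subunit protein near the stalk, had 2392 CPM in the media control and 1416 CPM in deoxycholic acid, a log2 ratio of -0.76. It shares 93.3% of its words with other genes, and the row of the near-identical Rpl9-ps6 had 19.6 and 8.44 CPM. Rps3, a small subunit protein that also takes part in DNA repair, had 2466 and 1711 CPM and a ratio of -0.53, with 2.96% of its words shared. Rpl7a had 1311 and 919 CPM, a ratio of -0.51. Rps2 had 3173 and 2319 CPM and a ratio of -0.45, and Rps18, at the head of the small subunit, had 4045 and 3068 CPM and a ratio of -0.40. These 5 genes were lower by more than any other measured gene of the naming rule.

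The remaining 10 had ratios between -0.39 and -0.27. Rpl3, a core protein near the peptidyl transferase centre, had 1196 and 910 CPM, a ratio of -0.39, which was -0.42 in the Elane stage and -0.06 in the Retnlg stage. Rps23, a small subunit protein of the decoding centre, had 3588 and 2864 CPM, a ratio of -0.33. Rps10 had 3894 and 3127 CPM and Rps7 had 2539 and 2068 CPM, both small subunit proteins. Rpl11 and Rpl5 form the particle that can bind Mdm2 when ribosome assembly is disturbed. Rpl11 had 3205 and 2612 CPM and a ratio of -0.30, and Rpl5, with 1188 and 991 CPM and a ratio of -0.26, lay just inside the fold. Rps19 had 3771 and 3724 CPM, a ratio of -0.02, and Rps14 had 3071 and 2829 CPM, a ratio of -0.12, both inside the fold. Rps6, the phosphorylated protein often used as a readout of growth signalling, had 1879 and 1581 CPM, a ratio of -0.25. Rpsa, also known as a laminin receptor, had 3737 and 3660 CPM, a ratio of -0.03.
Among the stalk proteins the ratios were -0.19 for Rplp0, -0.09 for Rplp1 and -0.04 for Rplp2, all inside the fold.

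**Figure D4:**
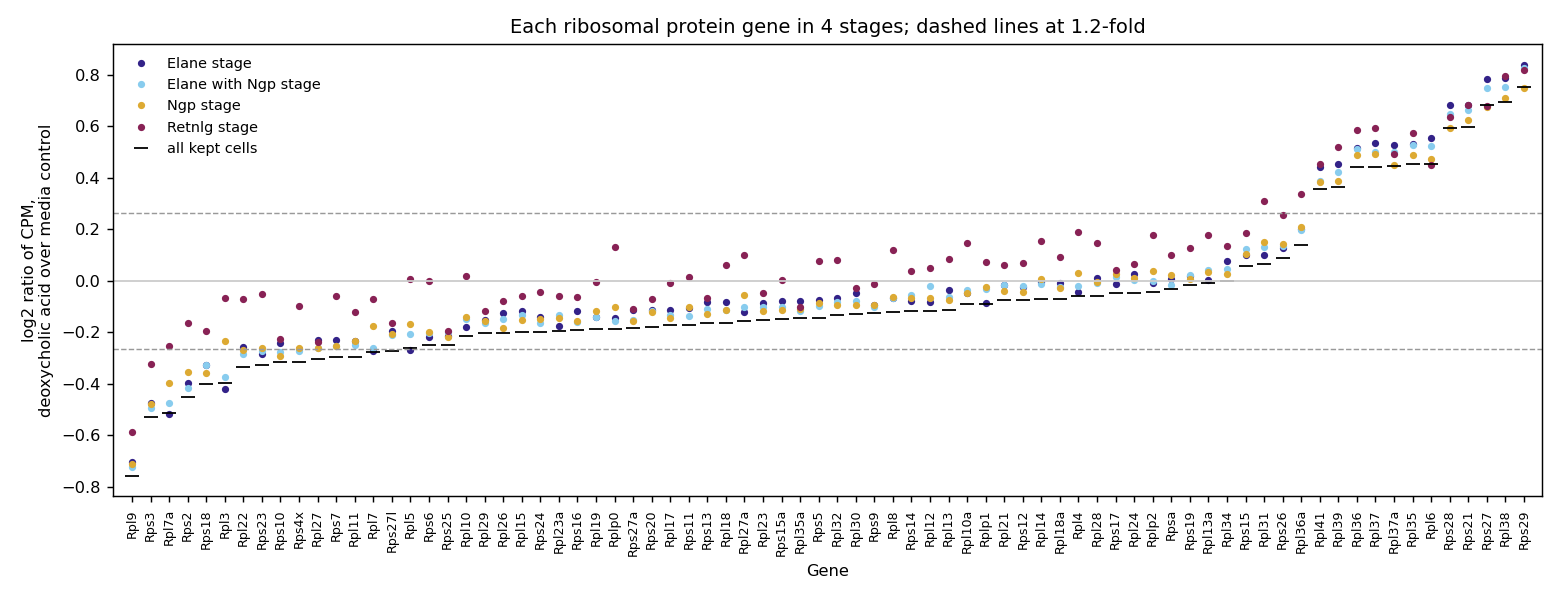
Log2 ratio of CPM, deoxycholic acid over media control, for 76 of the 77 measured ribosomal protein genes, ordered by the ratio over all kept cells (dashes), with 1 point per stage and dashed lines at 1.2-fold. The 12 genes at the right lie above the upper line in each of the 4 stages, while of the 15 genes called lower 2 lie below the lower line in each stage.

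The higher genes were alike in every stage. All 12 were past 1.2-fold in each of the 4 stages, and the largest spread of 1 gene's log2 ratio over the stages was 0.13. Rps29, for example, had 6260 and 11196 CPM in the Elane stage, 5016 and 8898 CPM in the Elane with Ngp stage, 2894 and 4866 CPM in the Ngp stage, and 1812 and 3194 CPM in the Retnlg stage of the media control and deoxycholic acid. Its log2 ratio lay between 0.75 and 0.84 over the 4 stages. The lower genes varied more. All 15 were below 0 in every stage, but 9, 10, 7 and 2 of them were past the fold in the Elane, Elane with Ngp, Ngp and Retnlg stages, and 2 were past it in all 4. The share of all genes past the fold within each stage was not computed, so these counts have no background. Rpl9 went from 3265 to 2007 CPM in the Elane stage and from 940 to 626 CPM in the Retnlg stage. Over the 77 genes the ratios in the Elane and Ngp stages had a Pearson's r of 0.99, and those in the Elane and Retnlg stages 0.96. The stages are different cells of the same 2 libraries, so any difference between the libraries enters each of these ratios. The called genes were picked by the ratio over all kept cells, most of which lie in these 4 stages. Agreement between stages is thus in part built in and is no separate check of the calls.

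The genes with the highest ratios were mostly the shortest. Coding length was taken from GENCODE vM21, and the limit of 330 bases was chosen after the ratios had been seen. Of 13 measured genes with at most 330 coding bases, 10 were higher and 1 lower, and their median log2 ratio was 0.44. Of 24 genes with 331 to 450 bases, 1 was higher and 3 lower, with a median of -0.13. Of 19 genes with 451 to 600 bases, 0 were higher and 5 lower, with a median of -0.17. Of 18 genes with 601 to 900 bases, 1 was higher and 5 lower, with the same median to 2 decimals. In these bins above 330 bases 27.9%, 24.7% and 19.2% of other genes were lower, beside 12.5%, 26.3% and 27.8% of the ribosomal protein genes. Of other genes 4.55%, 2.88% and 5.48% were higher. Spearman's rho between ratio and coding length was -0.50 over the 77 genes, which share libraries, totals and in part sequence. Over the same genes it was -0.31 with transcript length and 0.33 with mean CPM. Beyond the limit only Rpl35, with 369 bases, and Rpl6, with 888 bases, were called higher. Within it, Rps27l with 315 bases had a ratio of -0.27, while Rpl36 of the same length had 0.44. Rpl36a, with 318 bases, had a ratio of 0.14 and lay inside the fold, as did Rpl35a with 330 bases.

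**Figure D5:**
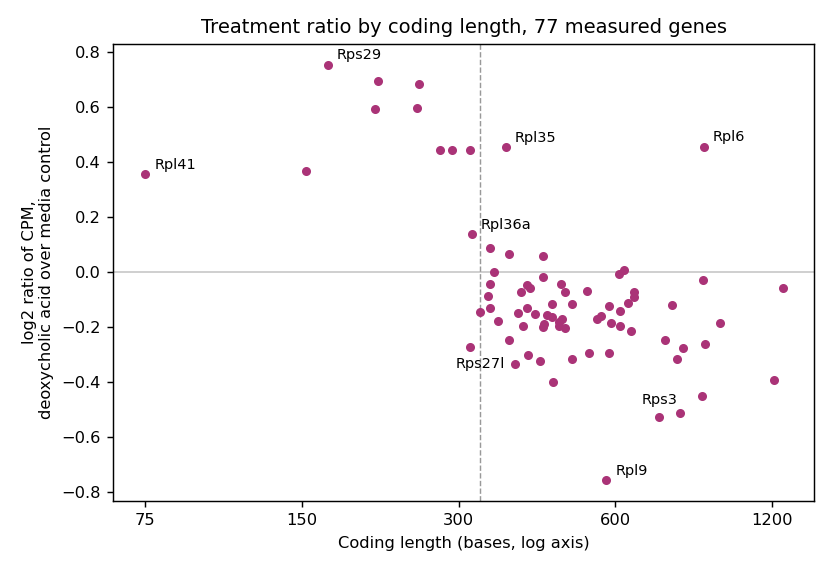
Log2 ratio of CPM, deoxycholic acid over media control (vertical axis), against coding length in bases (horizontal log axis) for 77 measured ribosomal protein genes, with the dashed line at 330 bases. Left of the line 10 of 13 genes are at least 1.2-fold higher; Rpl35 and Rpl6 are the genes right of it that are.

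Other short genes were mostly inside the fold or lower. Of 242 other measured genes with at most 330 coding bases, 11.2% were higher and 24.4% lower, and their median log2 ratio was -0.12. Over 4522 other genes the rho between ratio and coding length was 0.52, with a median of 0.18 above 3000 bases. These lengths go beyond the ribosomal protein genes, of which the longest has 1257 bases. At 331 to 450, 451 to 600 and 601 to 900 bases the medians of other genes were -0.13, -0.14 and -0.08. Those of the ribosomal protein genes were -0.13, -0.17 and -0.17. The share of 50-base words held in common with other genes was only weakly related to the ratios of the ribosomal protein genes (rho -0.19). Rows that share sequence with these genes had different ratios. Rpl41 shares 43.9% of its words with the row Gm10076, which had 617 CPM in the media control and 1276 CPM in deoxycholic acid, a log2 ratio of 1.05. Rpl35 shares 37.6% of its words with Gm2000, which had 83.2 and 73.5 CPM, a ratio of -0.18. Median depth, at 18801 against 14421 UMIs per cell, differed between the libraries in which these ratios were taken, and its part in them was not tested.

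Of the ribosomal protein genes outside the naming rule, Fau, a ubiquitin-like fusion with Rps30, had 4541 CPM in the media control and 4790 CPM in deoxycholic acid, a log2 ratio of 0.08. Rps3a1 had 2933 and 2222 CPM, a ratio of -0.40. Along the stages Fau was 1.98-fold and 2.00-fold lower in the Retnlg stage, close to Rps9. Rps3a1 was 3.70-fold and 3.21-fold lower, near the median of the ribosomal protein genes. Of the relatives Rpl22l1, Rpl7l1 and Rpl36al, 3 of 3 were lower along the stages, and 2 of 3 were past the fold lower with deoxycholic acid.

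The median decline along the stages was larger for genes that build ribosomes than for the ribosomal proteins themselves. Of 19 measured ribosome biogenesis genes, 17 were at least 2-fold lower in the Retnlg stage, with a median log2 ratio of -3.74 and -3.84. Npm1, a nucleolar chaperone, was 17.4-fold and 16.0-fold lower, and Ncl, nucleolin, 9.81-fold and 10.6-fold. Nhp2 and Nop10, subunits of the particle that pseudouridylates ribosomal RNA, were 17.4-fold and 15.8-fold, and 22.9-fold and 24.9-fold lower. For translation factors and related genes the median decline was smaller: 14 of 22 were at least 2-fold lower, with medians of -1.46 and -1.26. Eef1a1, the main elongation factor, was 2.18-fold and 1.93-fold lower, and Tpt1, a translationally controlled growth protein, 1.34-fold and 1.30-fold. Rack1, a scaffold on the small subunit, was 3.08-fold and 2.56-fold lower. Of 74 measured mitochondrial ribosomal protein genes, 69 were lower, with medians of -2.37 and -2.24. Mrpl18 was 5.36-fold and 6.07-fold lower, Mrpl20 4.47-fold and 5.19-fold and Mrpl57 3.75-fold and 4.15-fold, while Mrpl33 was 1.62-fold and 1.69-fold lower and was not called.

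With deoxycholic acid the medians of these groups were below 0, beside 11% of all measured genes called lower and 13.2% called higher. Of 18 measured biogenesis genes, 4 were lower and 1 higher, with a median log2 ratio of -0.03. Npm1 had a ratio of -0.31, Nop10 -0.33, Nhp2 -0.19 and Ncl 0.02. Of 22 translation factors and related genes, 3 were lower and 1 higher, with a median of -0.11. Of 73 mitochondrial ribosomal protein genes, 15 were lower and 3 higher, with a median of -0.19, beside -0.13 for the cytosolic genes. Of the 5 pseudogene rows, only Rpl10-ps3 was measured, with 21.7 and 16.9 CPM and a ratio of -0.36, where Rpl10 itself had -0.22.

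Cells outside the 4 stages had ribosomal protein shares near those of the early granulocyte stages. They carried 29.0% in 860 media control cells and 28.4% in 726 deoxycholic acid cells. Among them, cells with at least 20 UMIs per 10000 of 5 basophil markers (Prss34, Mcpt8, Cpa3, Gata2 and Hdc) carried 27.5% in 135 cells and 28.5% in 83 cells. Cells at that level of monocyte markers carried 24.9% in 17 cells and 23.9% in 40 cells. Cells at that level of megakaryocyte and erythroid markers carried 35.9% and 38.7%, but in only 13 and 6 cells.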

How the data were processed

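Cells of 2 groups were measured by 10x Genomics 3′ single-cell RNA sequencing, and the submitters' processing notes name Cell Ranger 6.0. The build and annotation behind the gene names were not given in the sources used here. Whole UMI counts, 1 value per gene and cell, were deposited without normalization. Cell names show the group and not which of its 4 labelled samples a cell is from. A group was thus handled as 1 library, and the planned edgeR test was not run. Cells with at least 300 genes and at most 10% mitochondrial UMIs were kept. Scrublet (scanpy 1.11.5) marked 1 cell per library by its automatic threshold, so cells in the top 6% of scores were dropped instead; ties raised this to 6.44% in the media control and 6.73% in deoxycholic acid.

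UMIs were summed over cells and divided by the total. A gene was measured at 20 CPM and 50 UMIs in the higher library or, for stages, in the higher stage of each library. Calls are a fold of 1.2 between libraries and of 2 between stages. Intervals are exact Poisson or binomial, for counting error only. UMIs within a cell are not independent. The members and lists were chosen with earlier results of these data known. Named genes were the 6 highest in level, the 5 at each end of either comparison, the stalk proteins, scarce members, paralog pairs, and the 4 most abundant genes of each list. Msrb1, Gm10076, Gm2000, Rps27rt, Rps3a1, Rps14, Rps19, Rps6, Rpl5, Rpsa, Rpl36a and the other called members were added after their values were seen. Items withheld here are not reported. Coding length and 50-base words came from GENCODE vM21 (GRCm38), and start regions from RefSeq (GRCm38.p6). The ratio computation was tested on simulated data. Other denominators, scalings, cell filters, stage limits and a length trend were tried. Python 3.11.15, numpy 2.4.6, scipy 1.17.1 and pandas 2.3.3 were used.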

Additional observations from a re-analysis of the deposited data

How the results depend on the processing

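The summed log2 ratio of deoxycholic acid over media control (-0.0239) took the values -0.0192 with granule and calprotectin genes left out of the total, -0.0795 with median-of-ratios scaling, -0.00731 as a mean over cells, -0.0196 with every deposited cell, -0.0202 with no doublet removal, 0.0525 as a mean of the 4 stages, 0.113 with the transcript length trend taken out, and -0.143 over genes above 330 coding bases, a setting chosen after seeing the data. The count of 15 genes called lower was 6 as a mean of stages and 7 without the length trend, where 6 and 5 of the 15 remained, and the count of 12 called higher was 2 above 330 coding bases. The share of all genes past the fold was not computed for the mean of stages or without the length trend. All 12 genes called higher stayed past the fold under the 8 planned settings. Dropping the minimum on CPM, which is among them, cannot change these ratios. The settings with every deposited cell and with no doublet removal use mostly the same cells. The mean summed log2 ratio of the Retnlg over the Elane stage (-1.85) was -1.70 with the stage limits halved, -1.98 with them doubled, -1.28 with granule genes left out of the total, -3.55 as UMIs per cell, -1.89 in the media control alone, -1.80 in deoxycholic acid alone, -1.76 with no doublet removal and, chosen after seeing the data, -1.83 over genes with under 50% of words shared. The count of 76 lower genes was 62 without granule genes and 38 of 40 for genes with under 50% of words shared. With the stage limits halved, 0 genes were called higher, since Rpl3l was no longer called, although still higher, and the cause was not tested. No named gene past its fold changed sign. Each group was treated as 1 library, since it is not known here whether its 4 labelled samples are separate, and no depth of UMIs shows the spread between samples. No paired analysis was possible because the cell names carry no sample letter, and leaving out single samples was not run for the same reason.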
